A study of Mus with 2 samples.

Results

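The MHC class II high spots of the control tumor were 222 of the 2219 spots kept on that section. They were selected on measured values, as the top 10% of spots by the summed counts per 1000000 UMIs (CPM) of H2-Aa, H2-Ab1, H2-Eb1 and Cd74, among spots with more than 200 detected genes. The other 1997 spots of the section were the comparison, and the top 195 of 1950 kept spots of an rIL7 section, chosen by the same rule, are given beside it. The summed level ran from 12373 CPM down to 4683.06 CPM in the last spot inside the limit, and the first spot outside held 4679.14 CPM, so the limit cuts through a continuum. The median was 5563 CPM in the class II high spots and 2050 CPM in the others. These values, and those of the 4 genes that follow, made the choice and are a description of it.

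Both sections came from subcutaneous tumors of CT26, a mouse colon carcinoma cell line, of which 200000 cells were injected into female BALB/c mice aged 6 to 8 weeks. The control mouse received phosphate-buffered saline. The other mouse received 10 µg of recombinant mouse IL-7 (rIL7) into the peritoneum on days 11 and 13, and both tumors were taken on day 15. Sections of 10 µm were placed on Visium slides, where a hexagonal array of barcoded spots binds RNA from the tissue above it and counts each bound molecule through its unique molecular identifier (UMI). The tumor is a graft of 1 cell line in an immunocompetent host of the same strain. Each group is 1 section of 1 tumor, so no value has a replicate check and no test was run. Intervals are exact 95% Clopper-Pearson intervals. Those of ratios cover the counting error of UMIs only. Those of shares of spots count spots and treat each as independent, which neighbouring spots of 1 section are not. Spots are not replicates, so no interval measures variation between places or tumors. The ratio in each of 4 quadrants of the section, divided at array row 37 and array column 60, is given as the spread inside the section.

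MHC class II molecules are pairs of an alpha and a beta chain that carry peptides from endocytosed proteins to the cell surface, where CD4+ T cells read them. The invariant chain, encoded by Cd74, holds the groove of new class II molecules until they reach the endosome. Dendritic cells, macrophages and B cells make class II constitutively or on activation, and interferon-gamma induces it in many other cells through the coactivator Ciita. A Visium spot covers several cells, so a class II high spot is a place and not a cell type.

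The class II high spots held 2610791 UMIs and the others 20340887. A spot held a median of 11258.5 UMIs among the class II high spots (range 1108 to 29490) and 9493 among the others (349 to 28371). The median number of detected genes was 4360 and 3943, and mitochondrial transcripts made up 0.342% and 0.242% of UMIs, a difference whose part in the results was not tested. The genes of both groups of spots were compared as pooled CPM, which carries the depth of the spots in its denominator. More cells of a type in a spot and more RNA per cell cannot be told apart in such values.

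All 4 genes of the rule lie in the reference assembly GRCm38.p6: H2-Ab1 at chromosome 17, 34263227 to 34269418, H2-Aa at 34282744 to 34287823 and H2-Eb1 at 34305867 to 34316674 of the same chromosome, and Cd74 on chromosome 18, 60803849 to 60812652. H2-Aa, the alpha chain of the I-A molecule, stood at a lowest, median and highest level of 0, 749 and 1931 CPM in the class II high spots and of 0, 223 and 1450 CPM in the others. H2-Ab1, the matching beta chain, stood at 295, 1192 and 3176 CPM against 0, 399 and 1903 CPM. H2-Eb1, the beta chain of the I-E molecule, stood at 0, 719 and 1931 CPM against 0, 224 and 1980 CPM. The ranges overlapped for every gene, and 92 other spots exceeded the median H2-Eb1 level of the class II high spots. Cd74 stood at 644, 2977 and 7002 CPM against 0, 1054 and 3336 CPM, and only 6 other spots exceeded the class II high median. Cd74 supplied 51.9% of the UMIs behind the score, so it decided the ranking more than any chain gene did.

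Pooled over spots, H2-Aa was 2.78-fold (2.65 to 2.93) higher in the class II high spots, H2-Ab1 2.65-fold (2.55 to 2.76), H2-Eb1 2.70-fold (2.57 to 2.84) and Cd74 2.61-fold (2.54 to 2.68). The folds varied by place, from 1.90 to 4.56 over quadrants for H2-Aa and from 1.84 to 5.13 for Cd74. The other spots were far from negative: Cd74 was undetected in 68 of 1997, H2-Ab1 in 228, H2-Aa in 436 and H2-Eb1 in 442.

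A value the choice did not use was had by letting 3 of the genes choose the top 10% and reading the one left out. H2-Aa was then 2.48-fold (2.36 to 2.61) higher in the chosen spots, at 754 against 303 CPM. The fold was 2.46 (2.36 to 2.56) for H2-Ab1 and 2.50 (2.37 to 2.63) for H2-Eb1. Cd74, chosen through the 3 chain genes, was 2.17-fold (2.12 to 2.23) higher, at 2620 against 1205 CPM. Leaving out a chain gene kept 197, 197 and 204 of the 222 spots for H2-Aa, H2-Ab1 and H2-Eb1, and leaving out Cd74 kept 156. The chosen spots thus overlapped but were not identical, whichever gene was left out. What part counting error and the weight of Cd74 in the score had in this was not tested.

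The class II high spots were concentrated on the side of the section with low array columns. Of the 666 spots in the quadrant with low rows and low columns, 133 (19.97%) were class II high, and 59 of 457 (12.9%) in the quadrant with high rows and low columns. The shares were 14 of 446 (3.14%) and 16 of 650 (2.46%) in the quadrants with high columns. In bands of columns, 26.3% of spots were class II high at columns 0 to 15, 18.2% at columns 32 to 47, 3.99% at columns 64 to 79 and 0.429% (1 of 233 spots) at columns 96 to 111. Along rows the share was highest at the extremes, 18.8% at rows 10 to 19 and 21.6% at rows 60 to 69, against 5.42% at rows 40 to 49. The members' rows ran from 9 to 65 and their columns from 0 to 100.

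**Figure D1:**
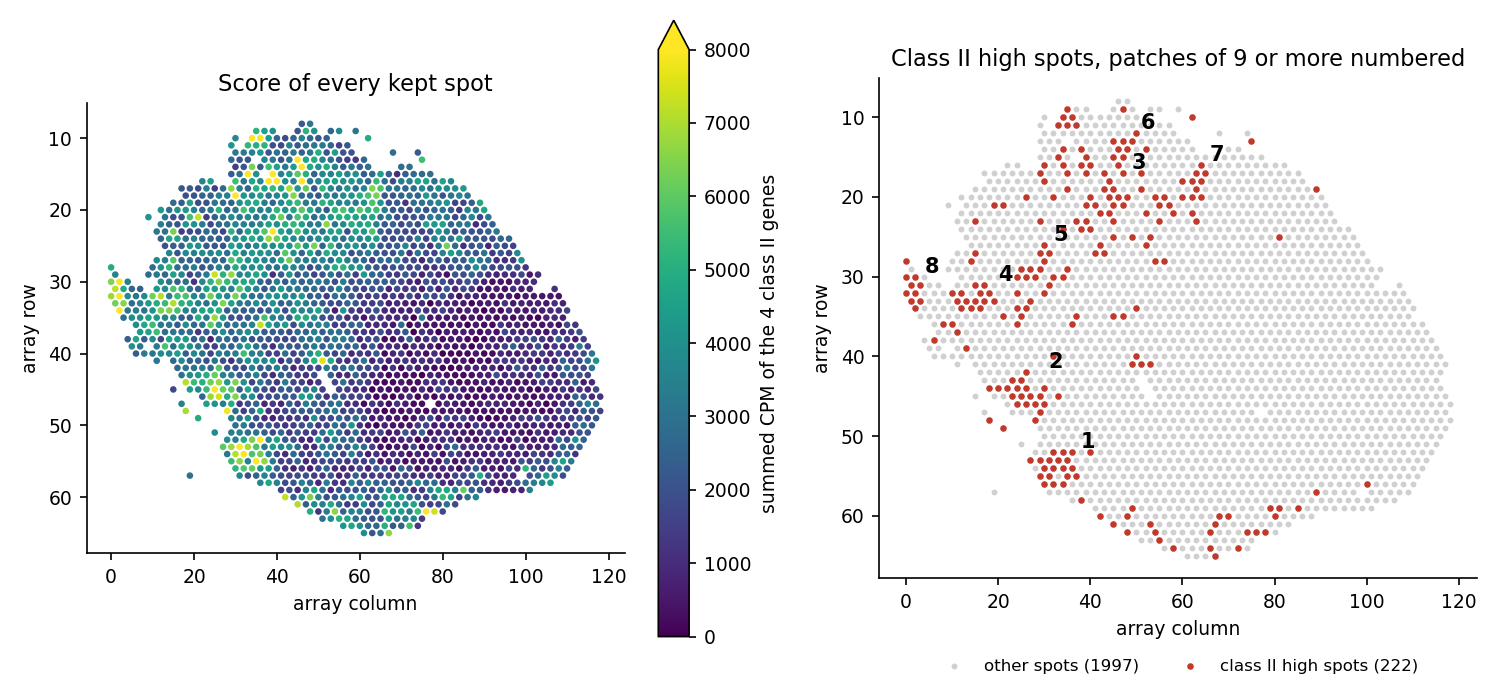
Every kept spot of the control section by array column (x axis) and array row (y axis, downward); the left panel colors spots by the summed CPM of the 4 class II genes, and the right panel marks the 222 class II high spots in red among 1997 others, with the 8 patches of at least 9 spots numbered. The marked spots lie mainly at columns under 60, in scattered patches, and the quadrant with high rows and high columns holds 16 of them.

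Class II high spots lay together in small patches rather than in 1 zone. On average 38.2% of the occupied neighbours of a class II high spot were class II high, against 6.87% of the neighbours of other spots and 10.0% of all spots. They formed 70 connected patches, of which 38 were 1 spot alone and the largest held 19. The 13 patches of at least 5 spots held 132 members (59.5%). Edge spots, within 2 grid steps of the outline of the main tissue piece, made up 28.4% of the class II high spots in that piece and 17.0% of the others. Read the other way, 15.5% of edge spots and 8.64% of interior spots were class II high. By distance, the share was 14.2% at the outermost step, 16.8% at the next, 16.5% at steps 3 to 4 and 3.48% at step 12 and deeper. Tissue reached the border of the capture array at 6 edge spots, of which 5 were class II high.

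Genes of the class II pathway that the rule did not use were higher in the class II high spots in most cases. Of 14 such genes with at least 20 UMIs in the section, 9 were higher by 1.5-fold or more and 0 were lower by that size. Over all 13176 genes with at least 20 UMIs, 7.64% were higher and 6.22% lower by that size. Their median log2 ratio was 0.74, against -0.02 over all those genes. The sum of the list was only 1.17-fold (1.15 to 1.19) higher, since Ctsl supplied 69.2% of its UMIs. Without Ctsl, an alternative chosen after seeing the data, the log2 ratio of the sum was 0.67 in place of 0.23.

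Ciita, the coactivator that switches on class II transcription, stood at 39.5 CPM against 15.6 CPM, 2.53-fold (2.01 to 3.17), and lay between 1.72 and 4.11 over quadrants. The highest spot of the class II high group held 3 Ciita UMIs, as did the highest other spot, so the difference is one of how often a spot held any. With every spot thinned to 5000 UMIs, which leaves out 20 class II high spots and 109 others, 19.3% (14.1 to 25.4) of class II high spots and 6.83% (5.74 to 8.07) of others had a Ciita UMI. Unthinned, the shares were 36.5% and 14.0%. The DNA-binding subunits that Ciita works with differed less. Rfx5 was at 1.1-fold (0.890 to 1.35), Rfxank at 1.04-fold (0.678 to 1.53) and Rfxap at 0.797-fold (0.625 to 1.0), all inside the 1.5-fold limits.

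Peptide loading genes were higher. H2-DMb1, a beta chain of the peptide exchanger H2-M, stood at 221 CPM against 98.4 CPM, 2.24-fold (2.04 to 2.46). Its level had a median of 211 CPM per class II high spot and 75.8 CPM per other spot, and 183 of 222 class II high spots lay above the latter. H2-DMa was 1.90-fold (1.67 to 2.15) higher and H2-DMb2 1.51-fold (1.22 to 1.86). H2-DMb1 and H2-DMb2 are close copies, and how reads were split between them is uncertain. H2-Oa, an inhibitor of H2-M, was 3.90-fold (1.33 to 10.3) on only 7 UMIs in class II high spots and 14 in others, and its partner H2-Ob 1.83-fold (0.449 to 5.62) on 4 and 17. H2-Eb2 was listed at 0 in every spot.

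Among the proteases that trim the invariant chain, Ctss stood at 681 CPM against 381 CPM, 1.79-fold (1.70 to 1.88), while Ctsl stood at 2941 CPM against 2961 CPM, 0.993-fold (0.970 to 1.02). The median of Ctsl per spot was 2808 CPM in the class II high spots and 2807 CPM in the others, and those levels overlapped throughout. Lgmn, the legumain protease, was 1.29-fold (1.22 to 1.37) higher. Ifi30, the lysosomal thiol reductase, was 1.56-fold (1.43 to 1.69) higher, and March1, a ubiquitin ligase that removes class II from the surface, 2.39-fold (1.69 to 3.34).

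**Figure D2:**
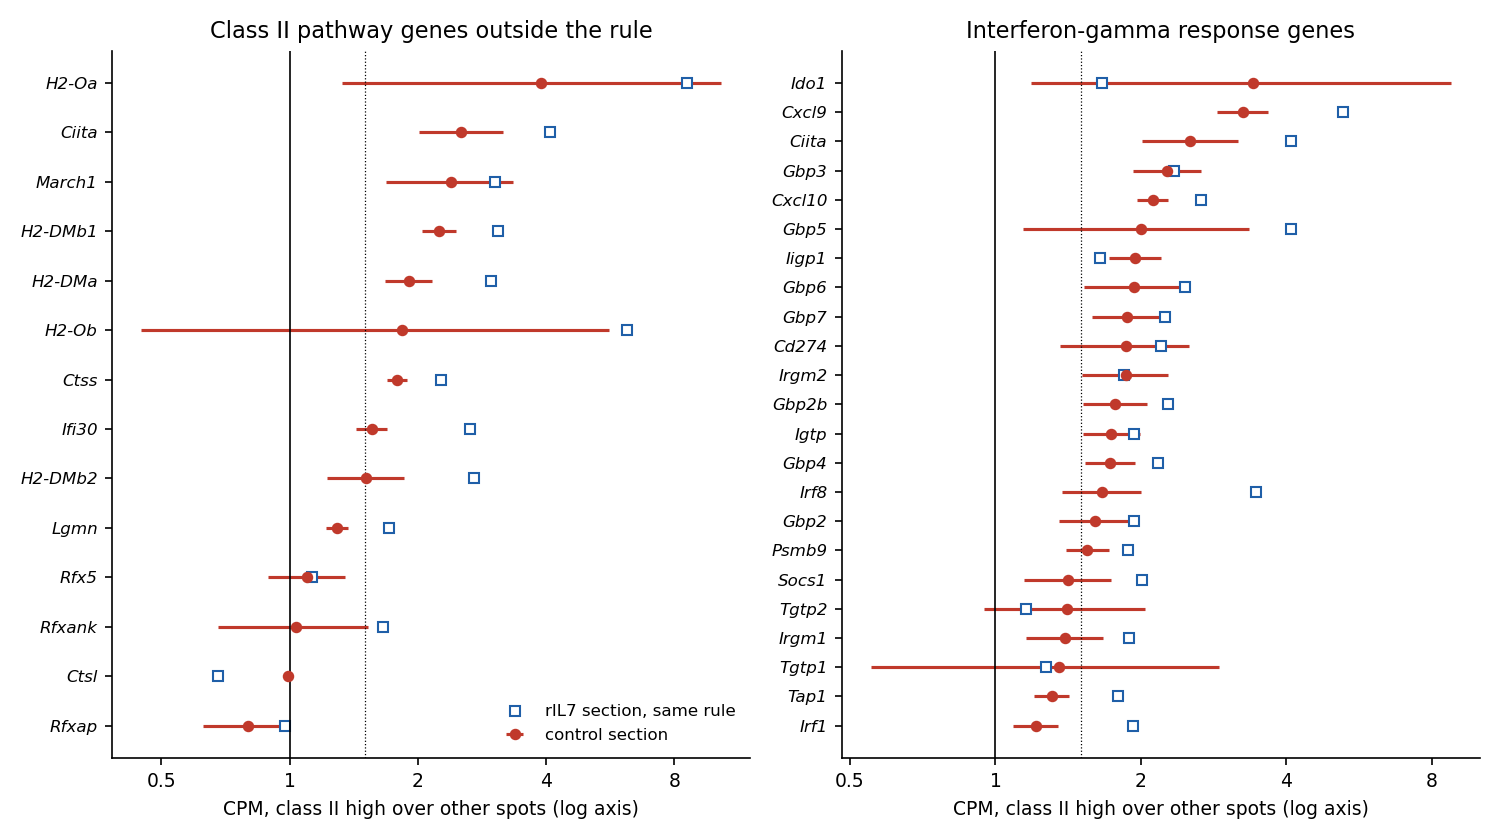
Ratio of pooled CPM in class II high spots over other spots for class II pathway genes outside the rule (left) and interferon-gamma response genes (right), on a log axis; red points with bars are the control section with 95% counting intervals, open blue squares the rIL7 section under the same rule, and the dotted line marks 1.5-fold. Ctsl, Rfx5, Rfxank and Rfxap sit near 1 in the control section, and every interferon-gamma response gene plotted, 1 of the 24 being left out, sits above 1.

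Across the 7575 genes with a section level of at least 20 CPM, the 4 rule genes left out, 189 (2.50%) passed 1.5-fold upward in the class II high spots and 57 (0.752%) downward. The median log2 ratio was -0.03. A limit of 2-fold left 27 higher and 6 lower genes, so most differences were modest in size. Of the 189 higher genes, 148 lay above 1 in all 4 quadrants, and of the 57 lower genes, 41 lay below 1 in all 4. RefSeq coordinates were matched by symbol for 98.8% of the tested genes.

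The highest ratio belonged to Dnase1l3 (chromosome 14, 7965187 to 7994760), a secreted DNase made by macrophages and dendritic cells. It stood at 73.2 CPM against 18.2 CPM, 4.01-fold (3.35 to 4.79), and between 2.59 and 9.80 over quadrants. It was undetected in 112 of 222 class II high spots and in 1692 of 1997 others. Cxcl9 (chromosome 5, 92321331 to 92328079), a chemokine that draws CXCR3+ T cells and is induced by interferon-gamma, followed at 146 CPM against 45.0 CPM, 3.25-fold (2.88 to 3.67). Cxcl9 reached 1782 CPM in the highest class II high spot and 823 CPM in the highest other spot, and was undetected in 86 and 1401 spots. Thinned to equal depth, 39.6% (32.8 to 46.7) of class II high spots and 16.1% (14.5 to 17.8) of others held a Cxcl9 UMI, and unthinned 61.3% and 29.8%.

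Next came AW112010, an interferon-induced transcript, at 255 CPM against 95.8 CPM, 2.66-fold (2.43 to 2.90). It was found in all but 39 class II high spots and in fewer of the others, where 1006 had none. Complement genes made up C3 at 2.50-fold (2.18 to 2.87) and Cfb at 2.45-fold (2.19 to 2.74), a central component of the cascade and factor B of its alternative pathway. Myeloid genes among the 15 highest were Ly6c2, a monocyte surface protein, at 2.56-fold (2.12 to 3.07), Fcgr4, an activating Fc receptor, at 2.39-fold (2.09 to 2.72), Plbd1 at 2.31-fold (1.90 to 2.80), Sirpb1c at 2.25-fold (1.82 to 2.77) and Ms4a4c at 2.12-fold (1.87 to 2.40). Sirpb1c belongs to a family of close copies, so its count is uncertain. Ccl5, a chemokine made by T and NK cells and macrophages, was 2.40-fold (2.20 to 2.63) higher and Itgal, the alpha chain of the lymphocyte integrin LFA-1, 2.22-fold (1.85 to 2.66). Gbp3, an interferon-induced GTPase, was 2.27-fold (1.93 to 2.66) higher, H2-DMb1 is given above, and Igfbp7, which vessels and fibroblasts make, was 2.13-fold (1.88 to 2.42) higher.

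The lower genes were of other kinds. Myl4 and Mylpf, myosin light chains of muscle, stood at 6.51 CPM against 29.5 CPM and at 9.19 CPM against 28.6 CPM, ratios of 0.221 (0.128 to 0.356) and 0.321 (0.204 to 0.483). Areg, a ligand of the epidermal growth factor receptor, stood at 34.9 CPM against 69.4 CPM, a ratio of 0.502 (0.402 to 0.621), and below 1 in every quadrant. Pthlh, the parathyroid hormone-related protein, stood at 144 CPM against 261 CPM, a ratio of 0.550 (0.494 to 0.611), and between 0.410 and 0.700 over quadrants. Its median per spot was 120 CPM in class II high spots and 225 CPM in others. Ddit4, a stress- and hypoxia-induced inhibitor of mTORC1, had a ratio of 0.568 (0.429 to 0.741). Abcb6, a porphyrin transporter, had 0.484 (0.315 to 0.713). Ankmy1, Rhebl1, Fbxl16 and Angptl6 had ratios between 0.479 and 0.560.

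Interferon-induced genes were higher as a group. Of 24 interferon-gamma response genes counted, 18 were at least 1.5-fold higher, against 7.64% of all genes with at least 20 UMIs. Of the 24, 0 were lower by that size and all lay above 1. Their sum was 2184 CPM against 1261 CPM, 1.73-fold (1.68 to 1.78), with 1.43 to 2.96 over quadrants. The median per spot was 1807 CPM against 1079 CPM, and 197 of 222 class II high spots (88.7%) lay above the median of the others. Cxcl10, a chemokine with the same receptor as Cxcl9, was 2.12-fold (1.96 to 2.28) higher, the GTPase Iigp1 1.95-fold (1.72 to 2.20) and Cd274, which encodes PD-L1, 1.86-fold (1.36 to 2.51). Irf1 differed less, at 1.21-fold (1.09 to 1.35). Ciita, Cxcl9 and Gbp3 also belong to this list. The transcript of interferon-gamma itself, Ifng, was scarce, with 14 UMIs in the class II high spots and 39 in the others, 2.80-fold (1.40 to 5.27).

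Genes induced by type I interferon behaved alike on average, with 13 of 16 at least 1.5-fold higher, 0 lower and a sum 1.72-fold (1.66 to 1.78) higher. The share of all genes with at least 20 UMIs that were higher by that size was 7.64%. Isg15, a ubiquitin-like modifier, was 2.02-fold (1.86 to 2.18) higher and Irf7, which amplifies interferon production, 1.82-fold (1.68 to 1.96). Ifit2 stood at 0.888-fold (0.610 to 1.26). The sum lay between 1.27 and 3.40 over quadrants, and Isg15 between 0.99 and 4.45.

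The class I pathway, which presents peptides from inside the cell to CD8+ T cells, differed by little. Every one of its 15 genes lay above 1 but only Psmb9, an immunoproteasome subunit, passed 1.5-fold, at 1.55-fold (1.40 to 1.71). That count is near the 7.64% of all genes with at least 20 UMIs that passed upward. The sum was 12000 CPM against 9719 CPM, 1.23-fold (1.22 to 1.25). B2m, the shared light chain, was 1.24-fold (1.21 to 1.28) higher, H2-K1 1.19-fold (1.15 to 1.22) and Nlrc5, the class I counterpart of Ciita, 1.06-fold (0.954 to 1.17). H2-K1, H2-D1 and the H2-Q genes are similar in sequence and their counts can share reads.

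Macrophage genes were higher as a group but not uniformly. Of 20 genes, 8 were at least 1.5-fold higher and 0 lower, against 7.64% and 6.22% of all genes with at least 20 UMIs. The sum was 11733 CPM against 8588 CPM, 1.37-fold (1.35 to 1.38). C1qa, a chain of complement C1q that tissue macrophages make, had a median of 751 CPM per class II high spot and 436 CPM per other spot. It was 1.64-fold (1.57 to 1.72) higher and was found in all but 5 class II high spots. Csf1r, the receptor for macrophage colony-stimulating factor, was 1.58-fold (1.45 to 1.72) higher and Adgre1, which encodes F4/80, 1.61-fold (1.36 to 1.89). By contrast Spp1, osteopontin, stood at 2293 CPM against 2382 CPM, 0.963-fold (0.937 to 0.989), Trem2 at 0.921-fold (0.766 to 1.1) and Pf4 at 0.986-fold (0.882 to 1.1). Spp1 held 26.5% of the UMIs of the list. Arg1, the arginase of wound-type macrophages, was low, at 6.51 CPM against 13.2 CPM, a ratio of 0.494 (0.284 to 0.806), and Hmox1 had a ratio of 0.523 (0.341 to 0.773). These were the 2 genes past the size rule among 10 counted in the anti-inflammatory list, whose sum was 1.1-fold (1.04 to 1.16).

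Other myeloid groups were mixed, and their counts stand against 7.64% of all genes with at least 20 UMIs that were at least 1.5-fold higher. Monocyte genes were at least 1.5-fold higher in 6 of 9 cases, with a median log2 ratio of 0.90, but their sum was 1.08-fold (1.04 to 1.13), since Fn1, at 0.811-fold (0.766 to 0.858), held 70.8% of the UMIs. The monocyte sum lay between 0.949 and 1.39 over quadrants. Dendritic cell genes were at least 1.5-fold higher in 7 of 13 cases. Among them Itgax, which encodes CD11c, was 2.04-fold (1.78 to 2.33) higher and Ccr7, the receptor that guides dendritic cells to lymph nodes, 3.08-fold (1.65 to 5.51) on 17 UMIs in class II high spots and 43 in others. Xcr1 and Clec9a, markers of cross-presenting dendritic cells, had 5 and 2 UMIs in class II high spots and 3 and 8 in others, too few to compare. Fc receptor genes were at least 1.5-fold higher in 3 of 5 cases and complement genes in 7 of 13, among them C1qb at 1.59-fold (1.52 to 1.66) and C1qc at 1.65-fold (1.57 to 1.73). Neutrophil genes split, with S100a9 at 0.714-fold (0.605 to 0.838) and Mmp9 at 1.69-fold (1.44 to 1.97), and a sum of 1.01-fold (0.927 to 1.1). Of 16 lysosomal genes, 3 passed 1.5-fold, among them the cathepsins Ctsh at 1.83-fold (1.64 to 2.04) and Ctsc at 1.65-fold (1.55 to 1.74).

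T cell genes were higher but scarce. Of 17 counted genes, 16 were at least 1.5-fold higher and 0 lower, against 7.64% and 6.22% of all genes with at least 20 UMIs. Trbc2 was the exception, at 95.8 CPM against 95.5 CPM, 1.0-fold (0.875 to 1.14), and it held 56.2% of the list's UMIs. The sum was 1.43-fold (1.31 to 1.56), and without Trbc2, chosen after seeing the data, its log2 ratio was 1.03 in place of 0.51. Cd8a was 2.24-fold (1.5 to 3.27) higher on 36 UMIs in class II high spots and 125 in others. Cd4 was 2.86-fold (1.29 to 5.86) higher on 11 and 30 UMIs, and Foxp3, the regulator of regulatory T cells, 4.82-fold (2.22 to 10.1) on 13 and 21. Thinned to equal depth, a UMI of Cd3d, Cd3e or Cd3g was found in 16.3% (11.5 to 22.2) of class II high spots and 6.78% (5.69 to 8.01) of others, so most class II high spots held none at that depth. Unthinned, the shares were 25.2% and 12.3%.

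Genes of NK and cytotoxic cells were at least 1.5-fold higher in 10 of 13 cases, with a sum 2.05-fold (1.92 to 2.19) higher, of which Ccl5 held 47.2% of UMIs. Over all genes with at least 20 UMIs, 7.64% were higher by that size. Klrk1, the receptor NKG2D, was 3.03-fold (2.28 to 4.0) higher, Nkg7 1.89-fold (1.41 to 2.49) and the granzyme Gzmb 1.77-fold (1.39 to 2.22), while Prf1, perforin, stood at 1.27-fold (0.953 to 1.66). B cell genes were nearly absent. Cd79a had 0 UMIs in the class II high spots and 9 in the others, and only Cd79b reached 20 UMIs, at 1.59-fold (0.718 to 3.18). The summed level of the B cell list was 0 in 211 of 222 class II high spots and in 1931 of 1997 others. Plasma cell genes passed 1.5-fold in 3 of 5 cases. Ighm was 1.89-fold (1.52 to 2.34) higher, while Jchain had 0 UMIs in class II high spots. What part any of these cell types had in the class II level was not tested.

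Genes that act on T cells beside the class II signal were at least 1.5-fold higher in 5 of 10 cases. Over all genes with at least 20 UMIs, 7.64% were higher and 6.22% lower by that size. Cd40, through which helper T cells license antigen-presenting cells, was 2.89-fold (2.24 to 3.70) higher and between 2.41 and 3.16 over quadrants. Cd86 was 1.63-fold (1.20 to 2.18) and Vsir 1.56-fold (1.37 to 1.76) higher, and Cd80 stood at 1.01-fold (0.775 to 1.31). Of 15 chemokine genes, 5 were at least 1.5-fold higher and 0 lower: Cxcl9, Cxcl10, Ccl5, Ccl8 at 2.11-fold (1.91 to 2.32) and Cxcl12 at 1.81-fold (1.0 to 3.11). Ccl2 stood at 1.13-fold (1.08 to 1.19). The pro-inflammatory list was divided. Tnf was 1.91-fold (1.27 to 2.79) higher and Il1b 1.46-fold (1.32 to 1.61), but the neutrophil attractants Cxcl1 and Cxcl2 had ratios of 0.516 (0.315 to 0.803) and 0.386 (0.139 to 0.866), and Cxcl3 had 0 UMIs in class II high spots and 24 in others. Of 10 genes of the IL-7 axis, only Il7 passed the size rule, at 1 UMI against 21, a ratio of 0.371 (0.00897 to 2.31), and Il7r stood at 1.02-fold (0.422 to 2.14).

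Among stromal lists, endothelial genes were at least 1.5-fold higher in 5 of 11 cases, with all 11 above 1. The shares of all genes with at least 20 UMIs were 7.64% higher and 6.22% lower. Plvap was 1.83-fold (1.49 to 2.23) and Pecam1, which encodes CD31, 1.78-fold (1.41 to 2.23) higher. Fibroblast genes passed the rule in 3 of 12 cases, Acta2, Thy1 and Lum. The fibroblast sum was 1.11-fold (1.08 to 1.14), and between 0.996 and 1.23 over quadrants. Pericyte genes were split, 3 higher and 1 lower of 6, mast cell genes held 1 of 5 past the rule, adipocyte genes 1 lower of 2, and Fabp4 supplied 97.3% of the adipocyte UMIs at 1.05-fold (0.922 to 1.18).

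None of the 2 CT26 genes and 4 of 12 hypoxia genes were lower by 1.5-fold or more, against 6.22% of all genes with at least 20 UMIs. The CT26 genes, Baiap2l1 and Rpl39l, stood at 0.850-fold (0.810 to 0.890) and 0.974-fold (0.914 to 1.04), and their sum at 1166 CPM against 1310 CPM. It was above 0 in all but 2 of the class II high spots, so tumor transcripts were present in nearly every one. None of 12 proliferation genes passed 1.5-fold and their sum was 1.0-fold (0.968 to 1.04). Of the hypoxia genes 0 were higher by that size, and their sum was 2678 CPM against 3445 CPM, a ratio of 0.777 (0.758 to 0.797), with 0.602 to 0.852 over quadrants. Bnip3, a mitophagy protein, had a ratio of 0.645 (0.574 to 0.723), Pgk1 0.736 (0.701 to 0.773) and Vegfa 0.712 (0.601 to 0.839). Adm and Egln3 passed the rule on only 1 and 2 UMIs in class II high spots, and Ankrd37 had 0.620 (0.523 to 0.729).

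Transcripts of skeletal muscle and of keratinocytes were unevenly spread over the section. At least 5 muscle UMIs were found in 93 spots, at rows 29 to 56 and columns 41 to 81, of which 0 were at the edge and 1 was class II high. The muscle sum was 32.2 CPM in class II high spots and 91.6 CPM in others, a log2 ratio of -1.51. It was -0.61 without those 93 spots, an alternative chosen after seeing the data, and -0.97 against other spots within 3 grid steps. In interior spots only it was -1.79, and with the top 10% taken within each quadrant -1.67. The muscle ratio lay between 0.234 and 0.586 over quadrants. What part position had in the muscle difference was not tested. Krt5 and Krt14, keratins of basal epidermis, had 446 UMIs, 58.5% of them in class II high spots. At least 5 of these UMIs were found in 8 spots at rows 21 to 35 and columns 0 to 9, of which 5 were class II high. Krt5 was 11.1-fold (8.25 to 14.9) and Krt14 10.9-fold (8.45 to 14.2) higher, and Krt10 stood at 0.991-fold (0.798 to 1.22). The keratinocyte list lay between 0.466 and 2.73 over quadrants. Neither basal keratin reached the 20 CPM level over the section. Hbb-bs, the only counted red blood cell gene, was 3.37-fold (1.75 to 6.21) higher on 16 UMIs in class II high spots and 37 in others.

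**Figure D3:**
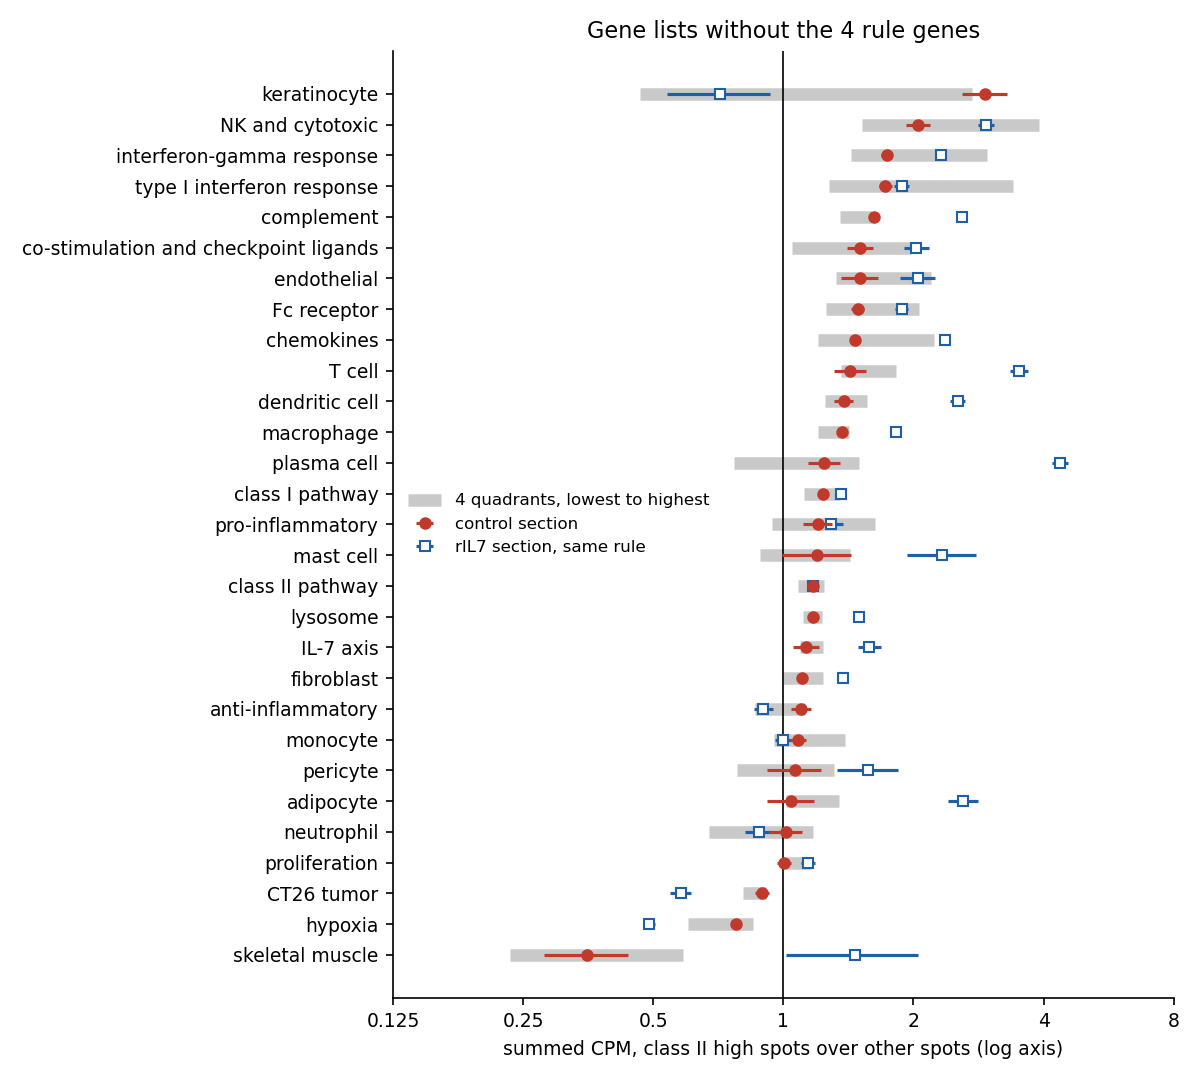
Ratio of summed CPM in class II high spots over other spots for the lists with at least 300 UMIs, on a log axis; red points with bars are the control section with 95% counting intervals, grey bars its lowest to highest quadrant, and open blue squares the rIL7 section under the same rule. The NK and cytotoxic, interferon-gamma and type I interferon lists lie at 1.72 to 2.05 in the control section, proliferation at 1.0, and hypoxia and skeletal muscle at 0.777 and 0.351.

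Levels changed with distance from the class II high spots. The 4 rule genes, which fixed the order at step 0, fell from 5936 CPM in the class II high spots to 3342 CPM in the 464 spots 1 grid step away, 2631, 2316 and 2035 CPM at 2, 3 and 4 to 5 steps, and 1124 CPM in the 700 spots at 6 to 20 steps. The interferon-gamma list went from 2184 CPM to 1536, 1311, 1216 and 1251 CPM, and 1014 CPM farthest away. Cxcl9 went from 146 CPM to 69.6 CPM at the first step and 23.1 CPM in the farthest ring. Ciita was at 39.5 CPM in the class II high spots, about level from 1 to 3 steps at 19.0, 19.2 and 19.7 CPM, and at 9.69 CPM farthest away. Complement and macrophage lists declined likewise, from 3234 to 1457 CPM and from 11733 to 6987 CPM.

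The T cell list dropped from 231 CPM to 162 CPM at the first step and then showed no order, with 175, 159, 178 and 150 CPM. Trbc2, which was level between class II high and other spots, held 56.2% of the UMIs of that list. The NK and cytotoxic list dropped from 457 to 264 CPM at the first step and to 168 CPM in the farthest ring. Hypoxia genes stood at 2678 CPM in the class II high spots, between 3118 and 3338 CPM at 1 to 5 steps, and at 3924 CPM at 6 to 20 steps. The rings are not independent of position in the section, and 6 spots that were not connected to a class II high spot were left out.

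**Figure D4:**
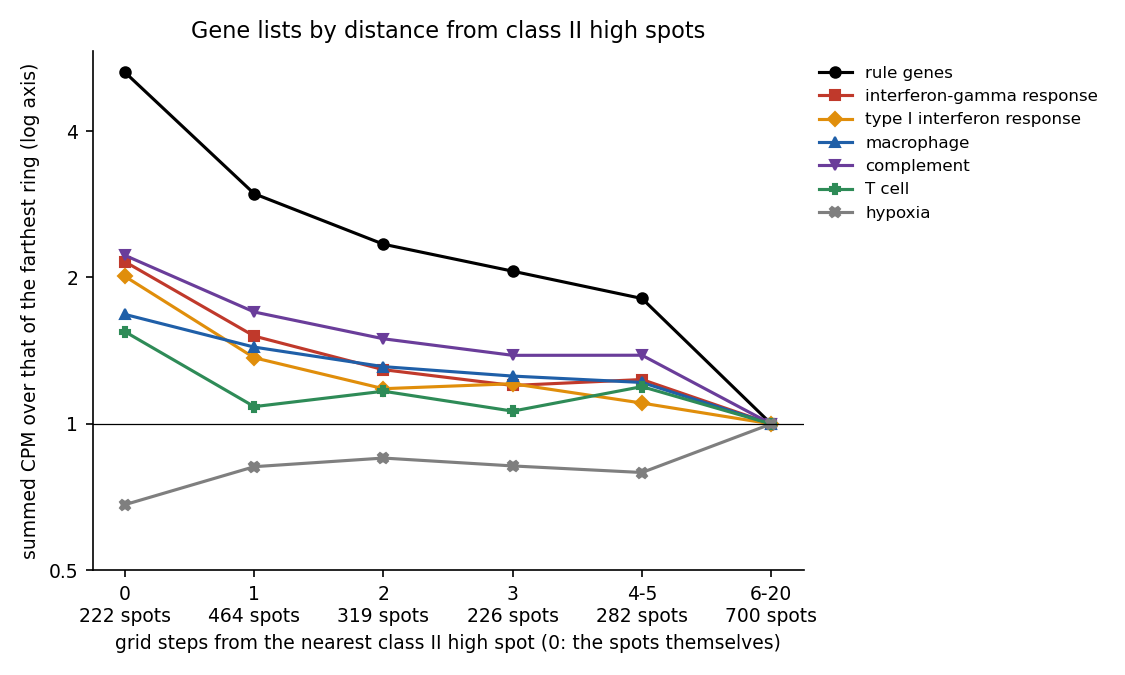
Summed CPM of 7 gene lists in rings of spots by grid steps from the nearest class II high spot, each divided by its level in the farthest ring (6 to 20 steps), on a log axis. The rule genes decline at every ring, the T cell list drops from 231 to 162 CPM at the first step and then stays near that level, and the hypoxia list rises from 2678 to 3924 CPM. Trbc2 holds 56.2% of the UMIs of the T cell list.

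The same order was read across the whole section by dividing its spots into 10 equal groups by class II score. The macrophage, complement and class I lists fell at each of the 9 steps from the highest to the lowest group, and hypoxia rose at each. The groups also differed in position and depth. The highest had a median column of 35.5, 27.9% edge spots and a median of 11258.5 UMIs, and the lowest 85, 2.71% and 8464. What part position and depth had in these trends was not tested. The macrophage list was 1.81-fold and the complement list 2.55-fold higher in the highest than in the lowest group. Interferon-gamma genes were 2.75-fold and NK and cytotoxic genes 3.21-fold higher. In the next highest group, just outside the limit, the interferon-gamma list still stood at 1629 CPM and the macrophage list at 10608 CPM, so the class II high spots were the upper end of a gradient and not a group set apart.

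The 8 patches of at least 9 spots differed in genes outside the rule. The type I interferon list ranged from 417 to 4933 CPM over these patches, a span of 11.8-fold. The rule genes ranged from 5482 to 6998 CPM, a range that the choice of spots by these genes limits. The patches were told apart after the values were seen, and each is 1 place.

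Patch 1, of 19 spots at rows 52 to 56 and columns 27 to 37, held the highest type I interferon level, 4933 CPM against 852 CPM in the other spots of the section. Isg15 stood at 1321 CPM (241 UMIs), Cxcl10 at 882 CPM, Ly6c2 at 329 CPM (60 UMIs) and Ccl5 at 822 CPM (150 UMIs). Its NK and cytotoxic sum was 1255 CPM against 223 CPM, while neutrophil genes were at 110 CPM against 222 CPM and CT26 genes at 822 CPM against 1310 CPM. Without this patch, an alternative chosen after seeing the data, the log2 ratio of the type I interferon list was 0.50 in place of 0.78 and that of Ccl5 0.98 in place of 1.26. Patch 2, of 19 spots at rows 42 to 48 and columns 18 to 30, was intermediate, with 2362 CPM of type I interferon genes and 3313 CPM of interferon-gamma genes.

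Patch 3, of 15 spots at rows 17 to 23 and columns 39 to 48, was the deepest, with a median of 21336 UMIs. It held the highest macrophage level, 13494 CPM, and 3607 CPM of complement genes, but its type I interferon sum, 644 CPM, lay below the 852 CPM of the other spots. Patch 5, of 10 spots at rows 26 to 30 and columns 24 to 31, had the lowest type I interferon level, 417 CPM, with Isg15 at 73.2 CPM (10 UMIs). Patches 6 and 7, at rows 12 to 20 and columns 45 to 65, had the highest endothelial levels, 323 and 293 CPM against 118 CPM in other spots. Patch 4, of 14 spots at rows 31 to 34 and columns 10 to 19, had the lowest hypoxia level, 2144 CPM.

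Patch 8, of 9 spots at rows 30 to 34 and columns 0 to 3, was made of edge spots only and was shallow, with a median of 4292 UMIs. It reached array column 0, at the border of the capture array, where the outline may not be the edge of the tissue. It held the highest interferon-gamma level, 5054 CPM, with Cxcl9 at 595 CPM (26 UMIs) and Ccl8 at 1235 CPM (54 UMIs). It also held 115 Krt5 UMIs and 143 Krt14 UMIs, of 446 in the section for both genes, and a keratinocyte sum of 6175 CPM. The part of these keratin transcripts in its class II level was not tested. Without the 8 spots that held at least 5 such UMIs, chosen after seeing the data, the log2 ratio of Cxcl9 over the whole section was 1.62 in place of 1.70.

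**Figure D5:**
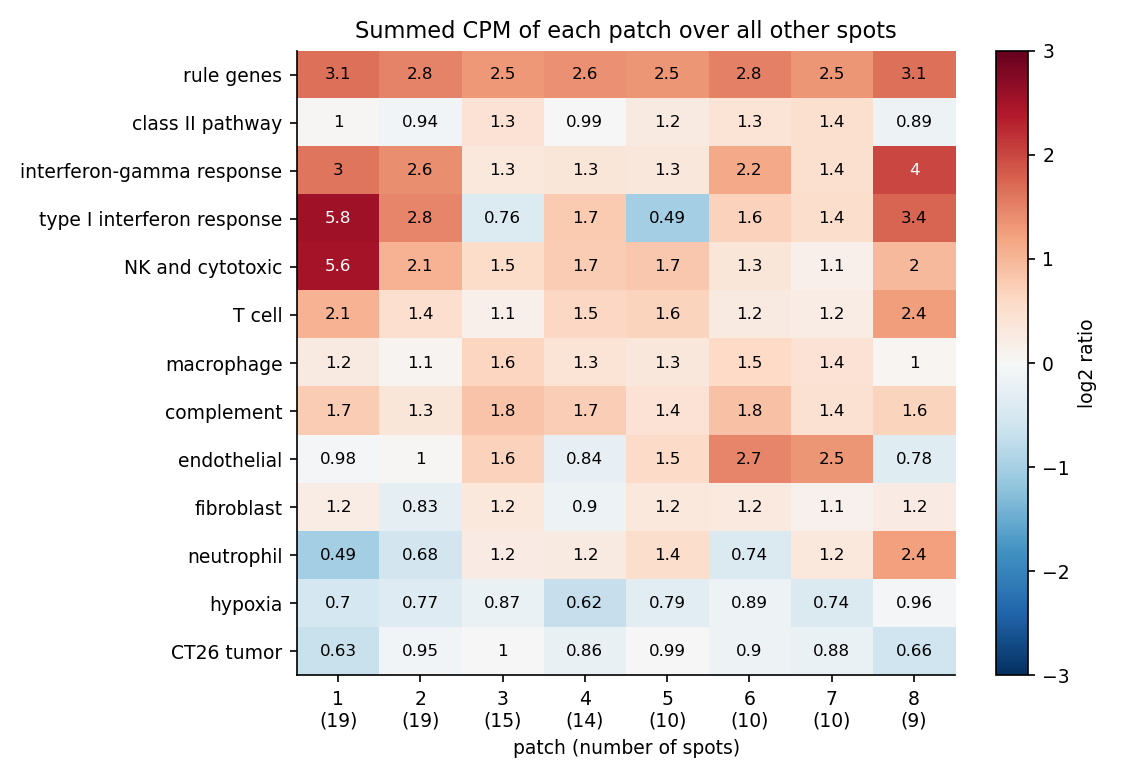
Summed CPM of 13 gene lists in each of the 8 patches of at least 9 class II high spots, divided by the level in all 1997 other spots; numbers in the cells are ratios and colors their log2 values. The ratios of the rule genes are set by the choice of spots, and the type I interferon list runs from 417 CPM in patch 5 to 4933 CPM in patch 1.

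Of the class II high spots in the main piece, 62 lay at the edge and 156 in the interior, with rule gene levels of 6147 and 5890 CPM, both held above the same limit by the choice. Type I interferon genes summed to 2346 CPM in the edge spots and 1222 CPM in the interior ones, against 1251 and 754 CPM in other edge and interior spots. Interferon-gamma genes summed to 2782 and 2018 CPM, against 1545 and 1190 CPM. Class II high spots with no class II high neighbour, 38 in all, had 5352 CPM of rule genes and 2015 CPM of interferon-gamma genes, and those with such a neighbour 6036 and 2213 CPM. Type I interferon genes were at 1129 CPM in the isolated spots and 1524 CPM in the joined ones, so interferon-induced levels above those of other spots were found in both.

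The same rule in the rIL7 section chose spots with a higher class II level. Its limit was 6894.39 CPM with the first spot outside at 6893.16 CPM, and 349 of its 1950 spots, 17.9% (16.2 to 19.7), lay at or above the control limit of 4683.06 CPM. The rule genes were 4.53-fold to 6.15-fold higher in its top spots, against 2.61-fold to 2.78-fold in the control. With the gene left out of the choice, H2-Aa was 6.03-fold (5.79 to 6.27), H2-Ab1 4.88-fold (4.72 to 5.04), H2-Eb1 6.04-fold (5.82 to 6.27) and Cd74 4.46-fold (4.36 to 4.56) higher. These top spots were at the edge in 85.9% of cases, against 28.4% in the control, and formed 15 patches, the largest of 78 spots, against 70 patches. With 1 section per group, the treatment and the section cannot be told apart.

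In the rIL7 top spots, 470 (6.41%) of 7337 genes at 20 CPM or more in both sections passed 1.5-fold upward and 659 (8.98%) downward. Of the 181 such genes higher in the control class II high spots, 164 were also higher there, which is 90.6% of the control genes and 34.9% of the rIL7 genes. Of 42 lower genes, 29 were also lower, 69.0% of the control genes and 4.40% of the rIL7 genes, and 0 genes passed the size rule in opposite directions. Across those genes, which are not independent of each other, the log2 ratios of the sections had a Pearson r of 0.66 and a Spearman rho of 0.52. Dnase1l3 was 5.48-fold, Cxcl9 5.25-fold and C3 6.20-fold higher in the rIL7 top spots. The T cell list was 3.52-fold and the plasma cell list 4.36-fold higher there, against 1.43-fold and 1.24-fold in the control, while the type I interferon list, at 1.88-fold, was near the control's 1.72-fold. In the control, Trbc2 held 56.2% of T cell UMIs and Sdc1 44.0% of plasma cell UMIs. The median gene ratios of these control lists were 2.00 and 1.89.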

How the data were processed

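Spatial transcriptomes of 2 tumor sections were used, 1 per group. The authors aligned and counted reads with Space Ranger 1.1.0 on mm10 (GRCm38). The matrices they deposited are raw UMI counts of 32285 features per spot. The array positions were also deposited and were used as given. Spots in tissue with more than 200 genes were kept (2 removed in the control section). All other steps were computed here. CPM is UMIs over the UMIs of the spot or pool, times 1000000. Members are the top 10% of spots by the summed CPM of the 4 genes. Pooled ratios carry exact 95% Clopper-Pearson intervals. Genes are called by size, at least 20 CPM in the section and 1.5-fold, and list genes at 20 UMIs or more.

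Named genes are the 4 of the rule, the 15 highest and 10 lowest ratios among genes on the same side of 1 in every quadrant with at least 10 members, and members of 32 lists. Kpna7, Acta1 and Cryab were passed over as lower genes because a quadrant disagreed. The spots, the lists and the size rules were chosen with earlier results of these data known. Coordinates are RefSeq's for GRCm38.p6. The 2 sections share 1702 spot barcodes, which name array positions and not cells, each at the same position in both. Computations used Python 3.11.15 with numpy 2.4.6, scipy 1.17.1 and pandas 2.3.3, and scaling factors came from edgeR 4.0.16 and DESeq2 1.42.0 in R 4.3.3. The ratio and interval code was checked on simulated counts. Images were not used here, and values of some list genes are not reported here. Depth over the kept spots was 22951678 UMIs for the control and 25729233 for rIL7.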

Additional observations from a re-analysis of the deposited data

Results flagged for a closer look

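The summed levels of 3 lists lay on opposite sides of 1 in the control and the rIL7 section with both counting intervals clear of 1. The difference between the sections was not tested, since each is 1 section. The keratinocyte list was 2.92-fold (2.59 to 3.29) higher in the control class II high spots, at 143 CPM against 49.0 CPM, and 0.714-fold (0.538 to 0.932) in the rIL7 top spots, at 28.5 CPM against 39.8 CPM. In the control section its ratio lay above 1 in 2 of 4 quadrants, and patch 8, of 9 spots, stood at 6175 CPM. In the interior of that section, class II high and other spots stood at 40.1 and 41.7 CPM. The skeletal muscle list was at 0.351-fold (0.279 to 0.437) in the control section, 32.2 CPM against 91.6 CPM, a log2 ratio of -1.51 that was -0.61 without the 93 spots with at least 5 muscle UMIs, and at 1.46-fold (1.02 to 2.05) in the rIL7 section, 18.6 CPM against 12.7 CPM. Only 4 muscle genes were counted in the rIL7 section, of which 0 were at least 1.5-fold higher and 1 was lower by that size. The anti-inflammatory list was at 1.1-fold (1.04 to 1.16), 643 CPM against 585 CPM, and at 0.899-fold (0.856 to 0.944), 843 CPM against 938 CPM.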

How the results depend on the processing

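List values here are log2 ratios of summed CPM. As reported they were 0.23 (class II pathway), 0.45 (macrophage), 0.51 (T cell), 0.79 (interferon-gamma) and -0.17 (CT26), 189 higher and 57 lower genes, and 38.2% class II high neighbours. Of 104 planned recomputations of these, 72 stayed within the interval or within 1.5 times the count and 32 moved further. No recomputed list or gene whose reported interval excluded 0 changed sign. The monocyte and fibroblast lists, reported at 0.11 and 0.15, came near 0 against other spots within 3 grid steps. They were at 0.003 (-0.06 to 0.07) and 0.03 (-0.009 to 0.07) there. The neutrophil and proliferation lists, reported at 0.018 and 0.0043 with intervals across 0, changed sign in 10 and 7 of 16 recomputations. The neutrophil list was at -0.20 (-0.34 to -0.06) within quadrants and at -0.35 with each spot weighted equally. Against other spots within 3 grid steps it was at 0.22 (0.08 to 0.35), so its sign depended on the comparison. For the top 5% of spots, interferon-gamma was 0.96, lower genes 158 and neighbours 28.95%. For the top 20%, they were 0.66, 26 and 51.6%, with macrophage 0.43 and higher genes 125. With the 4 genes weighted equally, interferon-gamma was 0.72. Without Cd74 in the score, macrophage was 0.47, interferon-gamma 0.67 and CT26 -0.10. Ranked after thinning to 5000 UMIs, macrophage was 0.42, interferon-gamma 0.74 and neighbours 33.0%. Taken within quadrants, class II pathway was 0.17, macrophage 0.32 and interferon-gamma 0.88. In interior spots, class II pathway was 0.29, macrophage 0.51 and lower genes 91. Against other spots within 3 grid steps, class II pathway was 0.13, macrophage 0.30, interferon-gamma 0.64, higher genes 112 and lower genes 24. With each spot weighted equally, interferon-gamma was 0.89 and lower genes 97. A level of 5 CPM gave 429 higher and 268 lower genes, and 20 UMIs alone 1007 and 819. The cause of these moves was not tested. Of alternatives chosen after seeing the data, leaving out Ctsl put class II pathway at 0.67, Trbc2 put T cell at 1.03, Spp1 put macrophage at 0.61, and patch 1 put interferon-gamma at 0.71 and neighbours at 35.7%. TMM and DESeq2 scaling shifted every log2 ratio by -0.01.

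Which spots were chosen depended on the score: 143 of 223 spots (64.1%) chosen within quadrants and 156 of 209 (74.6%) chosen after thinning were among the 222. No paired analysis was possible because each group holds 1 section and no result comes from a test. Genes under 20 UMIs, left out of the counts, were 7 of 8 in the B cell list, 6 of 8 in the adipocyte list and 4 of 5 in the red blood cell list.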
